A study of Mus musculus with 6 samples.

Results

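MiR-455-3p and miR-455-5p are the mature products of the 2 arms of one hairpin, and they were followed in brown and subcutaneous fat of mice. They were taken by name from a table of 1251 miRNA arms, so the members are 2 of 1251. The brown group, BF-EPA, held 3 libraries of interscapular brown adipose tissue, numbered 3, 4 and 5. The group it was compared with, SUB-EPA, held 3 libraries of inguinal subcutaneous adipose tissue, numbered 1, 3 and 8. Both groups came from C57BL/6J mice, an inbred strain, aged 5 to 6 weeks when an 11-week high fat diet began. Fat supplied 45% of the energy of that diet, protein 20% and carbohydrate 35%. Every library used here came from mice on this diet with eicosapentaenoic acid (EPA), an omega-3 fatty acid, listed at 6.75%. The comparison is therefore between tissues and not between diets. Mice were fasted for 4 hours before tissue was collected, and RNA was taken from whole tissue. Whether a brown and a subcutaneous library came from one mouse is not stated in the sources used here.

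A miRNA hairpin is cut into a short duplex, and one strand of it is usually kept in the silencing complex while the other is degraded. The kept strand finds target messages mainly through its seed, the stretch of bases 2 to 8. In mouse cells, miR-455 is induced by cold and by BMP7 and promotes brown adipocyte differentiation, with the adipogenic repressors Runx1t1 and Necdin and the hydroxylase Hif1an among its reported targets. The same miRNA is also known from cartilage, where its host gene Col27a1, a fibrillar collagen gene, is expressed.

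The mature sequences of both arms are shown because the seeds define which messages each arm could pair with, and because the arms differed in the data. They are RefSeq entries on GRCm38.p6, written 5′ to 3′ with the seed in capitals, and miR-5129-3p is included as the sole other entry that carried the seed of either arm.
miR-455-3p: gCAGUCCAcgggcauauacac
miR-455-5p: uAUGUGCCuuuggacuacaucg
miR-5129-3p: aAUGUGCCugugcaucucuucc
Among 1679 mature mouse miRNA names in the sequence table, 0 others had the seed of miR-455-3p and 1 other had that of miR-455-5p. The 3p arm is 21 bases long with 57.1% G or C, and the 5p arm is 22 bases long with 45.5%. On the plus strand of chromosome 4, the 5p arm occupies chr4:63256867-63256888 and the 3p arm chr4:63256904-63256924, with 15 bases between them. The GENCODE M21 hairpin gene Mir455 spans chr4:63256851-63256932, on the assembly also called mm10. It lies in intron 10 of the 61-exon protein-coding transcript of Col27a1, 2109 bases after one exon and 127 bases before the next.

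MiR-455-3p was abundant in brown fat and far lower in subcutaneous fat. The deposited values are normalized log2 abundances with a floor at 3.32, which is 10 on the linear scale. In BF-EPA libraries 3, 4 and 5, miR-455-3p stood at 14.02, 13.56 and 12.98 log2 units. In SUB-EPA libraries 1, 3 and 8 it stood at 6.16, 9.31 and 7.60 log2 units. The groups did not overlap, and the lowest brown library lay 3.68 log2 units above the highest subcutaneous one. On the linear scale these are 16567, 12113 and 8101 units in brown fat and 71.7, 633 and 194 units in subcutaneous fat. Ranked from the most abundant miRNA down, miR-455-3p was 27th, 33rd and 39th in the brown libraries 3, 4 and 5. Its rank was 209.5 (a tie), 107 and 162 in the subcutaneous libraries 1, 3 and 8. Values recur exactly between libraries, so linear values, folds and ranks carry largely the same information. MiR-455-5p was listed at the floor in all 6 libraries.

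**Figure D1:**
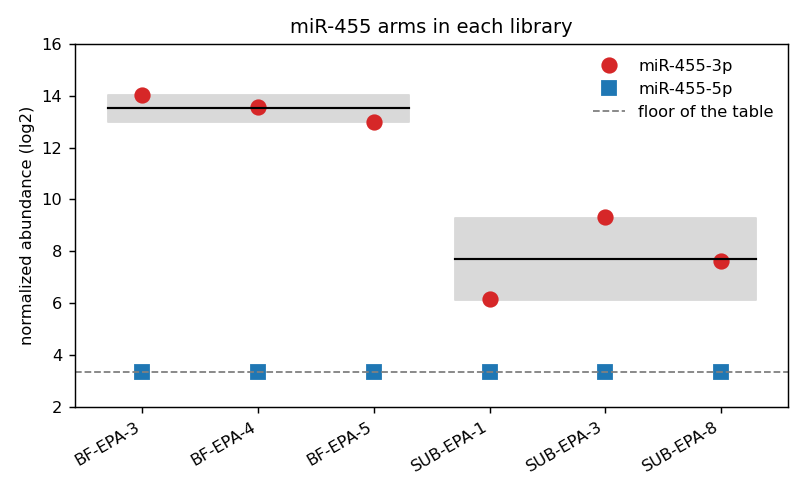
Normalized log2 abundance of both miR-455 arms in each of the 6 libraries, with BF-EPA on the left and SUB-EPA on the right; black lines and grey bands give the mean and 1 SD of miR-455-3p in each tissue (n = 3). MiR-455-3p lies between 12.98 and 14.02 in brown fat and between 6.16 and 9.31 in subcutaneous fat, and miR-455-5p sits on the dashed floor line throughout.

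MiR-455-3p averaged 13.52 ± 0.52 log2 units in brown fat and 7.69 ± 1.57 in subcutaneous fat (SD, n = 3 each). The log2 difference, brown minus subcutaneous, was 5.83 ± 0.77 (SE of the limma fit), with a 95% interval of 3.96 to 7.70. On the deposited scale this is 56.9-fold, with an interval of 15.5-fold to 208-fold, which is not a measured ratio of abundance. The limma adjusted p was 0.000918 over 269 tested miRNAs. Single brown libraries exceeded single subcutaneous libraries by 3.68 to 7.85 log2 units over the 9 possible pairs. The fold came to 33.5 without SUB-EPA-1 and 99.6 without SUB-EPA-3, so these libraries moved it most. Differences between tissues were common in the table: 33.5% of tested miRNAs were called higher in brown fat and 35.7% lower, and in 33.8% all 3 brown libraries lay above all 3 subcutaneous ones. In bulk tissue, more cells that contain a miRNA and more of it per cell cannot be told apart.

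By size, the miR-455-3p difference was the fourth largest in favour of brown fat. Only 3 of the 269 tested miRNAs had a larger fitted excess in brown fat: miR-129-2-3p (7.47), miR-129-5p (6.95) and miR-193b-5p (6.74 log2 units). Each of them was at the floor in at least 2 of the 3 subcutaneous libraries. Among the 169 miRNAs above the floor in all 6 libraries, miR-455-3p had the largest positive difference, here given as a description with no test of its own. These ranks depended on the setting. Over the 18 alternatives its rank among all fitted miRNAs ran from 2, with 40 added on the linear scale, to 26, with the floor subtracted and 1 added. Among those above the floor in all libraries it ran from 1 to 3, with rank 2 without BF-EPA-4 and rank 3 with library weights, without BF-EPA-3 and without SUB-EPA-1. Over all tested miRNAs the difference had a median of -0.45, which median-of-ratios scaling moved to -0.04. Relative to the median miRNA, the miR-455-3p difference was 6.28 log2 units.

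**Figure D2:**
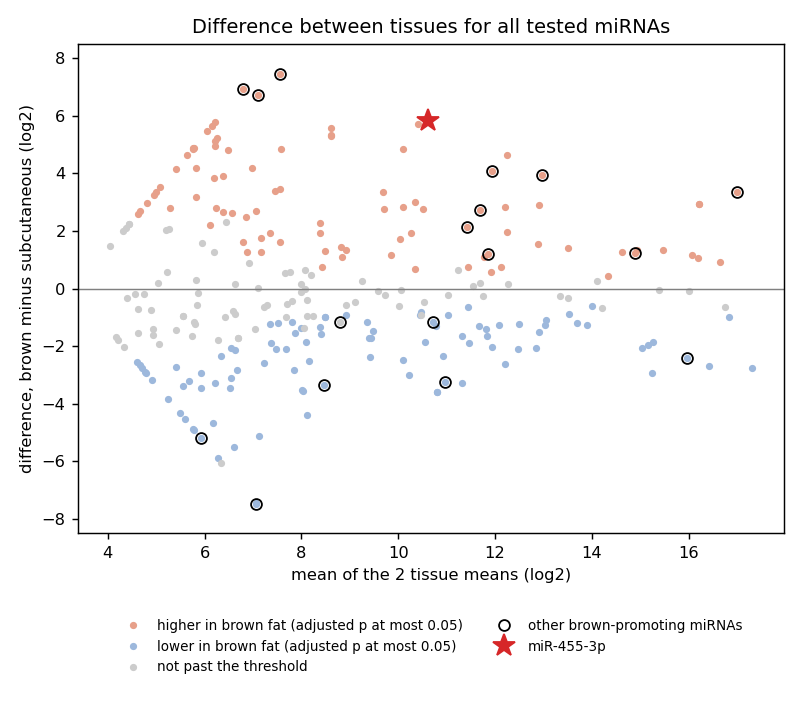
Log2 difference between tissues (brown minus subcutaneous) against the mean of both tissue means for the 269 tested miRNAs, coloured by the limma call, with the other tested members of the brown-promoting list circled. MiR-455-3p, the star, stands at a difference of 5.83, above all other miRNAs of similar or higher mean level.

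MiRNAs that matched miR-455-3p by mean level in brown fat had quite different mean levels in subcutaneous fat. The 5 nearest to it by mean brown level were miR-133a-3p, miR-744-5p, miR-423-3p, let-7d-5p and miR-10b-5p, with brown means of 13.34 to 13.76 log2 units. Their subcutaneous means were 13.65, 10.78, 12.11, 14.31 and 16.71 in that order, all above the 7.69 of miR-455-3p. MiR-133a-3p matched by its mean only, with values from 10.32 to 17.20 in brown and from 10.74 to 16.90 in subcutaneous libraries. MiR-744-5p was higher in brown fat by 2.83 ± 0.23 log2 units (SE, limma adjusted p = 0.000106). MiR-10b-5p, encoded in the Hoxd cluster, was lower in brown fat, with a difference of -2.95 ± 0.17 (SE, limma adjusted p = 3.8e-05). MiR-423-3p had a difference of 1.54, which turned to -0.24 when each library's trend with GC content was removed. For let-7d-5p the difference was -0.60, and 0.79 with that trend removed.

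The arms of miR-455 were unequal in every library. Set against the floor value of miR-455-5p, miR-455-3p stood 10.69, 10.24 and 9.66 log2 units higher in BF-EPA libraries 3, 4 and 5. In SUB-EPA libraries 1, 3 and 8 the distance was 2.84, 5.99 and 4.28 log2 units. These are distances to the floor and not arm ratios, since a true 5p level at or below the floor is not recorded. The lowest value listed above the floor was 4.63 to 5.00 in brown libraries and 4.26 to 5.53 in subcutaneous ones. The mean arm distance was 10.20 ± 0.52 in brown fat and 4.37 ± 1.57 in subcutaneous fat (SD, n = 3 each). An exact two-sided permutation test gave p = 0.1, the smallest that 3 against 3 libraries allow. Since the 5p arm was constant, this comparison repeats that of the 3p arm and gives no information on arm use between tissues. MiR-455-5p did not pass the filter on low values, so no fit gave it a difference.

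Many other hairpins also had an arm at the floor. Of 156 hairpins with both arms listed and the leading arm tested, 81 (51.9%) had the other arm at the floor in all 6 libraries. Of the 22 hairpins whose leading arm was at least as abundant in brown fat as miR-455-3p, itself counted, 4 had the other arm at the floor throughout. These were miR-191, miR-127, miR-10b and miR-455 itself, in order of the leading arm. Where both arms passed the filter, which was so for 54 hairpins, the shift of the 3p-minus-5p difference between tissues ran from -4.97 to 5.23. The shifts of largest size were those of miR-1843b (5.23), miR-193a (-4.97) and miR-708 (4.96). For miR-708 the 5p arm was at the floor in BF-EPA-4 and the 3p arm in SUB-EPA-1.

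**Figure D3:**
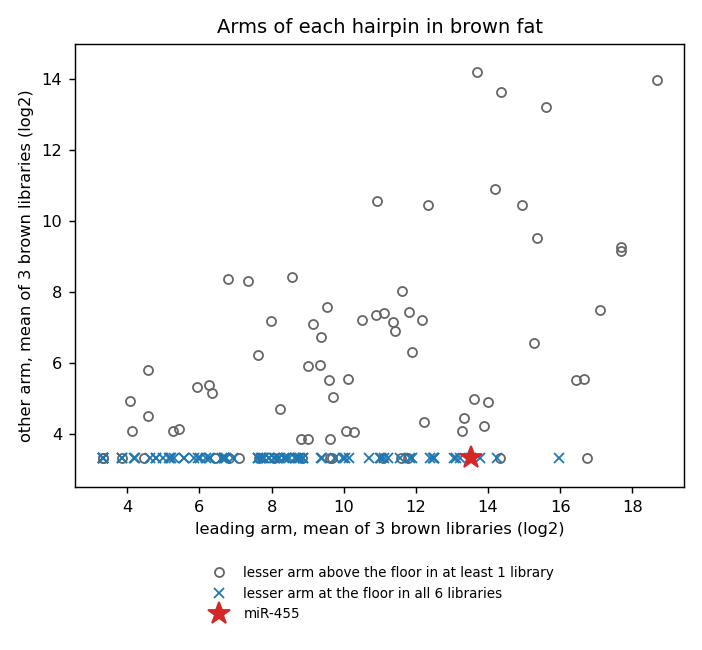
Mean log2 abundance over the 3 BF-EPA libraries of the leading arm and of the other arm of each of 156 hairpins; crosses mark hairpins whose other arm is at the floor in all 6 libraries. MiR-455 lies at 13.52 on the horizontal axis and at the floor on the vertical axis, the fourth highest of the 81 such hairpins.

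Subcutaneous libraries differed from each other in miR-455-3p far more than brown ones did. Their range was 3.14 log2 units, or 8.84-fold, against 1.03 log2 units, or 2.04-fold, among brown libraries. The SD of 1.57 in subcutaneous fat ranked 30th of 269 tested miRNAs, whose median SD there was 0.37. Among the 210 miRNAs above the floor in all 3 subcutaneous libraries its rank was 6, and the median SD of those was 0.34. The brown SD of 0.52 ranked 83rd, against a median of 0.30. SUB-EPA-3 was the highest, by 1.70 log2 units over SUB-EPA-8, and SUB-EPA-1 was the lowest, by 1.44 units under SUB-EPA-8. At 6.16 in SUB-EPA-1, miR-455-3p lay near 5.53, the lowest value listed above the floor there. Its rank was 209.5 among the 235 miRNAs above the floor in that library. The SDs of the tissues thus compare very unlike levels. Without SUB-EPA-3 the subcutaneous SD was 1.02.

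Other features of the subcutaneous libraries ran in the same or the opposite order, and their part in the spread was not tested. Above the floor there were 235, 273 and 252 miRNAs in SUB-EPA libraries 1, 3 and 8, the order of miR-455-3p. Across BF-EPA libraries 3, 4 and 5 that number was 243, 243 and 258, with miR-455-3p lowest in the last. The summed level of the 6 listed skeletal muscle miRNAs was 10.74, 16.91 and 13.33 log2 units in SUB-EPA libraries 1, 3 and 8, again in the order of miR-455-3p. In BF-EPA libraries 3, 4 and 5 it was 10.32, 17.21 and 12.50, and the brown library with the highest muscle sum held the middle value of miR-455-3p. These sums were nearly all miR-133a-3p. It stood at 10.74, 16.90 and 13.32 in SUB-EPA libraries 1, 3 and 8. In BF-EPA libraries 3, 4 and 5 it stood at 10.32, 17.20 and 12.50. Of the 6 members, 3 were at the floor in all libraries, among them the striated muscle miRNA miR-1a-3p. In subcutaneous libraries miR-133b-3p ran in the order of miR-455-3p, and miR-206-3p was at the floor in all 3. Leaving out the library highest in miR-133a-3p from each tissue, BF-EPA-4 and SUB-EPA-3, gave a miR-455-3p difference of 6.62 (limma adjusted p = 0.00573).

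Epithelial miRNAs ran the other way at the low end. The summed level of the 7 listed epithelial miRNAs was 15.27 log2 units in SUB-EPA-1, where miR-455-3p was lowest, and 8.27 and 8.72 in SUB-EPA-3 and SUB-EPA-8. In brown libraries it was 8.11 to 8.63. Its leading member miR-205-5p, a miRNA of basal epithelium, stood at 15.02, 7.35 and 5.74 in SUB-EPA libraries 1, 3 and 8 and was listed at the floor in all 3 brown libraries. With SUB-EPA-1 left out, the miR-455-3p difference was 5.07 (limma adjusted p = 0.00205), and the range over the 18 alternatives was 5.07 to 6.64.

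**Figure D4:**
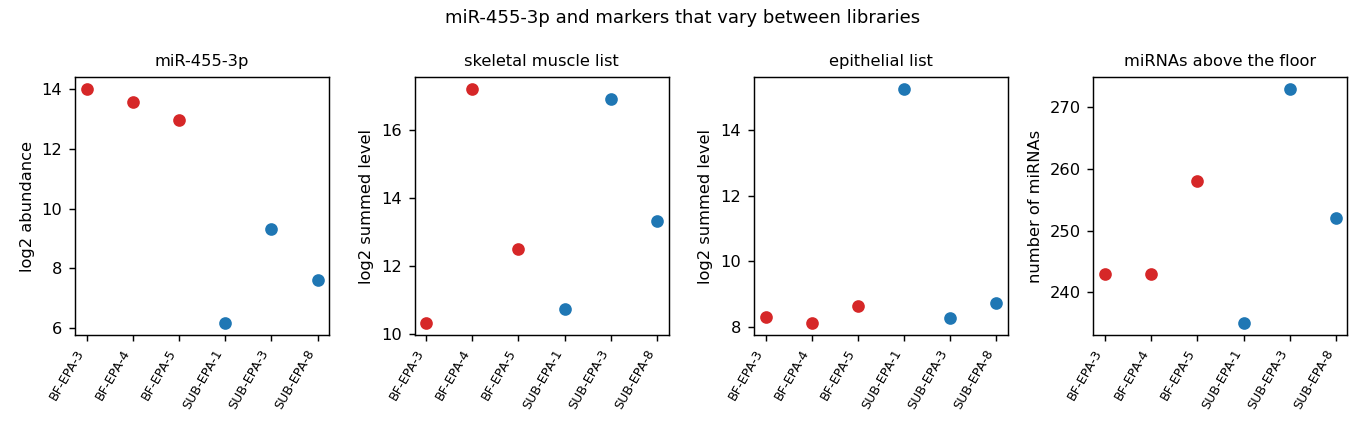
MiR-455-3p, the summed levels of the skeletal muscle and epithelial lists (log2) and the number of miRNAs above the floor in each library, with BF-EPA in red on the left and SUB-EPA in blue on the right. In subcutaneous libraries miR-455-3p, the muscle sum and the number above the floor are all highest in SUB-EPA-3 and lowest in SUB-EPA-1, whereas the epithelial sum is 15.27 in SUB-EPA-1.

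The order of the subcutaneous libraries was shared by many other miRNAs called higher in brown fat. Of the 89 others, 74 had unequal subcutaneous values. SUB-EPA-3 was the highest in 48 of these (64.9%), SUB-EPA-1 was the lowest in 44 (59.5%), and the full order of miR-455-3p was found in 31 (41.9%). Over all other tested miRNAs with unequal values, the shares were 37.1%, 40.8% and 24.1% of 245. Among miRNAs lower in brown fat, SUB-EPA-3 was the highest in 15 of 93 (16.1%). These shares describe 3 libraries and carry no test.

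The 5 miRNAs whose profiles were most like that of miR-455-3p were miR-668-3p, miR-5126, miR-433-3p, miR-193b-5p and miR-378d. Likeness was the Euclidean distance between log2 profiles over the 6 libraries, each centred on its mean. It was 1.83 to 1.96 for these 5, 1.99 for the next miRNA and 8.16 at the median. Because the measure uses the tissue difference and the order of libraries, neither is a finding about this group. Their sequences are shown to compare seeds, in capitals, with that of miR-455-3p above.
miR-668-3p: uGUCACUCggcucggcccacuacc
miR-5126: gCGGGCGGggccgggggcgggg
miR-433-3p: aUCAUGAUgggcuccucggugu
miR-193b-5p: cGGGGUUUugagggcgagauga
miR-378d: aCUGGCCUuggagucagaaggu
With miR-455-3p they carried 6 distinct seeds. MiR-668-3p and miR-433-3p are encoded in the imprinted region of chromosome 12, and miR-193b-5p is the other arm of a brown adipocyte miRNA on chromosome 16.

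All 5 were lower in abundance than miR-455-3p in brown fat. MiR-5126 came closest, at 12.50, 12.25 and 12.81 log2 units in BF-EPA libraries 3, 4 and 5, against 6.72, 8.45 and 7.80 in SUB-EPA libraries 1, 3 and 8. All of its 22 bases are G or C (100%), and with each library's GC trend removed its difference of 4.87 turned to -1.44 (limma adjusted p = 0.00504), whereas that of miR-455-3p was 5.11 (limma adjusted p = 0.00105). MiR-378d stood at 10.13, 9.52 and 10.34 in brown fat and at the floor, 6.19 and 5.94 in subcutaneous fat, in the same order of libraries. MiR-668-3p, miR-433-3p and miR-193b-5p had means of 8.69, 8.88 and 10.46 in brown fat, and each was above the floor in SUB-EPA-3 alone of the subcutaneous libraries. Across the 229 tested miRNAs with a sequence, GC content and the tissue difference had a Pearson correlation of 0.52, which describes miRNAs that share libraries. Median GC content was 57.1% for those called higher in brown fat and 45.5% for those called lower.

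**Figure D5:**
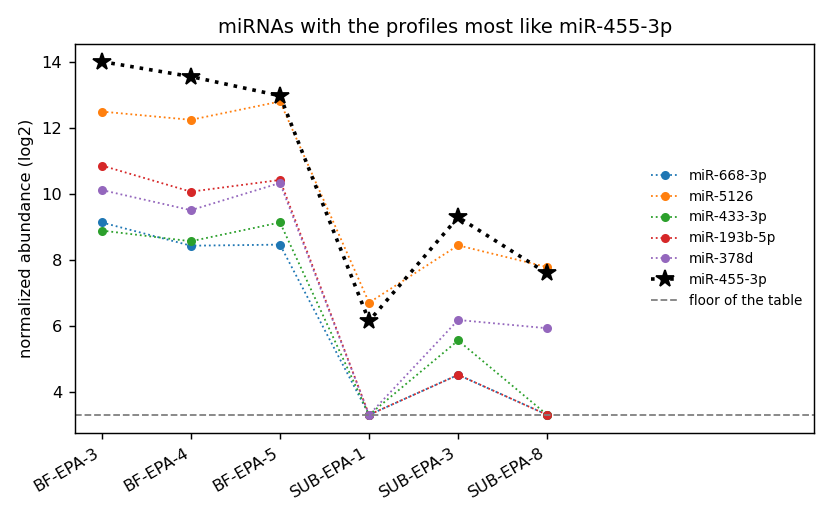
Normalized log2 abundance of miR-455-3p and of the 5 miRNAs with the nearest centred profiles in the 6 libraries, BF-EPA on the left and SUB-EPA on the right; dotted lines link the values of one miRNA and imply no order of libraries. MiR-455-3p is the highest in all 3 brown libraries and in SUB-EPA-3, and 4 of the other 5 are at the floor in SUB-EPA-1.

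Of 21 listed arms reported to promote brown or beige fat, 18 passed the filter, and 11 of these were higher and 6 lower in brown fat, with 1 not past the threshold. The median difference of the 18 was 1.69, beside -0.45 for all tested miRNAs. Of all tested miRNAs, 33.5% were called higher and 35.7% lower, so the 6 lower arms are near that last share. The list was chosen with earlier results of these data known. MiR-455-3p is itself one of the 11. Both arms of miR-378a and both arms of miR-193b are also among them, so the 11 are not separate observations. MiR-378a-3p and miR-378a-5p, from an intron of the coactivator gene Ppargc1b, were higher by 3.37 ± 0.11 and 4.10 ± 0.21 log2 units (SE). MiR-378a-3p stood at 18.67 in all 3 brown libraries, and let-7c-5p stood at the same value in all 3 subcutaneous ones. Every library thus had the same highest value, so the difference of miR-378a-3p and its SE rest on a maximum that did not vary. MiR-486-5p, at 17.68 in all 3 brown libraries, and let-7d-5p, at 14.31 in all 3 subcutaneous ones, did not vary there either. Such equal values are no measure of reproducibility. MiR-193b-3p and miR-365-3p, which promote brown adipocyte formation in cultured mouse cells, were higher by 3.95 ± 0.23 and 1.22 ± 0.20. MiR-193b-5p is listed with them and is described above.

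MiR-328-3p, a miRNA linked to brown fat differentiation, was higher by 2.73 ± 0.30 log2 units (SE), and miR-30c-5p, reported to target the corepressor Nrip1, by 1.24 ± 0.17. MiR-129-5p and miR-129-2-3p are the other 2 strongly brown-biased arms of the list. The call of miR-182-5p (2.15 ± 0.78, SE, limma adjusted p = 0.0471) was lost under 9 of the alternatives, among them leaving out BF-EPA-3 (adjusted p = 0.141). Beside them, miR-455-3p had the greatest brown excess of any list member that was above the floor in all 6 libraries.

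The 6 lower arms of that list included miR-196a-5p and miR-196b-5p, HOX-cluster miRNAs that are linked to beige cells in white fat. In brown fat both were at the floor, and they averaged 10.81 ± 0.11 and 8.52 ± 0.42 log2 units in subcutaneous fat (SD, n = 3). The others were miR-26a-5p (-2.39), miR-26b-5p (-3.25), miR-193a-3p (-3.34) and miR-30b-5p (-1.16 log2 units), the last with an adjusted p of 0.0540 under median-of-ratios scaling. MiR-203-3p had a difference of -1.15 ± 1.21 (SE, limma adjusted p = 0.418). MiR-203-3p is also on the epithelial list and was highest in SUB-EPA-1.

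Arms reported to restrain brown fat gave 2 higher and 7 lower of 15 tested, with 6 not past the threshold and a median difference of -0.92. Among all tested miRNAs, 33.5% were called higher and 35.7% lower. The 2 higher arms, miR-125b-5p and miR-150-5p, were named after their values were seen, and 1 higher arm was called without BF-EPA-4, SUB-EPA-3 or SUB-EPA-8. With the GC trend removed 4 arms were lower, but miR-143-3p and miR-145a-3p had no matched sequence and were not in that fit. The 3 arms of the list with the largest differences were miR-199a-3p (-3.58 ± 0.21 SE), miR-145a-3p (-3.21 ± 0.81) and miR-143-3p (-2.07 ± 0.11), all lower in brown fat. MiR-143 and miR-145a are smooth muscle miRNAs and miR-199a is mesenchymal, so the list shares members with other cell types. The call of miR-145a-3p was lost without BF-EPA-3 (limma adjusted p = 0.0521), BF-EPA-5 (0.0517) or both libraries numbered 3 (0.0737).

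Because miR-455 and Col27a1 are also cartilage genes, miR-140-3p, from the cartilage-expressed gene Wwp2, was read beside them. It stood at 11.70, 11.34 and 11.75 log2 units in BF-EPA libraries 3, 4 and 5, against 11.34, 11.70 and 11.48 in SUB-EPA libraries 1, 3 and 8. The groups overlapped and the difference was 0.09 ± 0.18 (SE, limma adjusted p = 0.678, 95% interval -0.36 to 0.54). With the GC trend of each library removed it was -0.63 (limma adjusted p = 0.0153). Of the other 3 listed cartilage arms none passed the filter, and 2 were at the floor in all libraries.

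The lists of other cell types were chosen with results of these data known, so they are described here and are no independent check of the tissues. Beside their counts, 33.5% of all 269 tested miRNAs were called higher in brown fat and 35.7% lower. All 8 white-depot arms were lower in brown fat, and their summed level was 14.81 to 15.26 log2 units in brown fat and 17.16 to 17.76 in subcutaneous fat. Among them, the HOX-cluster miR-10a-5p differed by -1.86 and miR-708-5p by -5.12 log2 units. Of the 6 stromal arms 5 were lower, with sums of 10.97 to 11.47 in brown fat and 13.82 to 14.00 in subcutaneous fat. MiR-199a-3p and miR-199b-3p, both among the 5, had identical values in every library. They are therefore not separate observations, and both the count and the sums include them both. The sixth, miR-214-3p, had a difference of -0.46 (limma adjusted p = 0.0586) and was called lower under 6 of 18 alternatives, with adjusted p down to 0.000422 when the GC trend was removed. Both tested myeloid arms were lower, with differences of -5.51 for miR-223-3p and -3.10 for miR-146a-5p. The call of miR-146a-5p was lost under 7 alternatives. Both endothelial arms of miR-126 were lower, with sums of 11.66 to 11.90 in brown fat and 13.27 to 13.62 in subcutaneous fat. The call of miR-126-5p was lost with median-of-ratios scaling (-0.49, limma adjusted p = 0.0995). It was also lost when both libraries numbered 3 were omitted (limma adjusted p = 0.0786), or BF-EPA-4 together with SUB-EPA-3 (0.0710). Red cell arms split, with miR-486-5p higher by 2.95 and miR-451a at a difference of -1.49, which turned to 0.50 with the GC trend removed. Of 3 tested muscle arms and 5 tested epithelial arms, 0 passed the threshold in either direction (limma, with 0 muscle arms and 1 epithelial arm at an unadjusted p under 0.05). That epithelial arm, miR-205-5p, had a limma adjusted p of 0.0536 and was called lower in brown fat under 6 of 18 alternatives. Without SUB-EPA-1 its difference was -3.22 (limma adjusted p = 0.00688), and without SUB-EPA-8 it was -7.86 (0.0329).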

How the data were processed

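Small RNA libraries of 6 mouse fat samples were analysed. The authors deposited log2 values for 1251 miRNA arms. The series' design text states mapping of about 13.8 M reads a sample to mm10, scaling to total usable reads and an addition of 40 counts, which is not visible as an offset. For the aligner and annotation, nothing is stated in the sources used. The values have a floor at 10 on the linear scale, and 910 arms are at it in all libraries. Linear totals are nearly equal, and highest values equal, between libraries by a step that no source names. Single values also recur exactly between libraries. MiR-455-3p had 14.02, 13.56 and 12.98 in BF-EPA libraries 3, 4 and 5. In SUB-EPA-1, miR-30c-5p, miR-103-3p and miR-23b-3p had those same values. A value thus largely follows from rank within its library, and folds are differences on that shared scale, not measured ratios of abundance. Read depth therefore cannot be recovered, and no counting interval is given.

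Differences, brown minus subcutaneous, on the deposited log2 values were fitted with a mean-variance trend (limma 3.58.1, R 4.3.3), and p-values were Benjamini-Hochberg adjusted at 0.05. Tests covered the 269 miRNAs whose mean linear value above the floor reached 24.05, or 10 ppm of the mean library total. The fit was also run on simulated data with independent normal noise. Those data had no floor and no values shared between libraries, so they do not check the fit for the present data. A list's summed level is log2 of its summed linear values above the floor, plus the floor. The permutation test used scipy 1.17.1 in Python 3.11.15, with numpy 2.4.6 and pandas 2.3.3, and plots used matplotlib 3.10.9.

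Named miRNAs were set by a rule: the members, the 5 nearest profiles, the 5 nearest brown levels, all tested brown-promoting arms, the 3 largest differences of the brown-restraining list, up to 3 of each marker list by level, and hairpins by arm shift; miR-191, miR-127 and miR-10b were named after their values were seen. The members and lists were chosen with earlier results of these data known. Alternatives covered filters, pseudocounts, scaling, variance models, GC content (229 of 269 miRNAs matched a RefSeq sequence by name, 85.1%) and left-out libraries. Collapsing identical rows and omitting BF-EPA-4 and SUB-EPA-3, the highest in miR-133a-3p, were added after seeing the data. Separate animals are not stated, so p-values speak only to the spread between samples, which may be technical.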

Additional observations from a re-analysis of the deposited data

How the results depend on the processing

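The miR-455-3p difference kept its direction and its call under all 18 alternatives, at 5.07 to 6.64 log2 units with limma adjusted p of 0.000209 to 0.00874. Other filters, no mean-variance trend, the robust fit and collapsed rows cannot change the difference itself, which stayed at 5.83. Leaving out each library in turn spanned the same 5.07 to 6.64. The arm comparison ranged from 5.07 to 6.64 with 1 library left out, and its exact permutation p cannot pass 0.05 at this size in any setting. No setting gave miR-455-5p a value, so the planned fits for it, and limma or the wider hairpin set for the arms, were not run. The subcutaneous SD of miR-455-3p was 1.02 to 2.22 with 1 subcutaneous library left out, and 1.02 without both libraries numbered 3 or without BF-EPA-4 and SUB-EPA-3. Calls higher in brown fat numbered 58 with the filter 10 times as strict, which tests 157 miRNAs. The brown-restraining list had 1 higher arm without a mean-variance trend, without both libraries numbered 3 and without BF-EPA-4 and SUB-EPA-3. It had 1 or 2 higher arms with 1 library left out. With the GC trend removed 4 were lower, in a fit that lacked miR-143-3p and miR-145a-3p. The epithelial list had 1 lower arm, miR-205-5p, under 6 alternatives, against 0 in the values reported.

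With the GC trend removed the sign turned for miR-5126 (-1.44), miR-423-3p (-0.24), let-7d-5p (0.79), miR-203-3p (0.25), miR-140-3p (-0.63), miR-200b-3p (0.45) and miR-451a (0.50). Differences that were not called and changed sign were miR-133a-3p at 0.10 with median-of-ratios scaling, 2.82 without both libraries numbered 3, and -2.24 to 1.31 with 1 library left out. They also included miR-133b-3p, at -3.02 to 0.15 with 1 library left out and 1.09 without both numbered 3. With 1 library left out, miR-203-3p ranged from -2.19 to 0.30 and miR-200b-3p from -2.57 to 0.53. MiR-206-3p ranged from 0 to 2.20 and was also 0 without BF-EPA-4 and SUB-EPA-3. The cause was not tested. No paired analysis was possible because the groups share only the number 3. Values near the floor understate differences.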
